A study of Homo sapiens with 6 samples.

Results

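The genes that keep transposable elements silent were followed in HEK 293T cells, a transformed human embryonic kidney line, in which guided transcriptional activators had been sent to the SVA_D subfamily of retrotransposons. The set holds 40 named genes out of the 19986 protein-coding genes of the count table, and it was chosen by name for a role in KAP1 and histone H3 lysine 9 (H3K9) methylation, HUSH, MORC, HP1, DNA methylation, chromatin remodelling, NuRD and CoREST, or Polycomb repression. All 40 were found under their symbols and all 40 passed the filter on low counts. Total RNA was sequenced as read pairs in 3 libraries with the SVA_D guide, whose genotype label is CRISPRa, and in 3 libraries without a guide, whose genotype label is WT. Per the labels, every library came from cells transfected with dCas9-VP64, a Cas9 that cannot cut fused to an activator, and with rtTA, the doxycycline-responsive transactivator. Suntag, an array of peptides that gathers many activators at 1 site, appears in all titles. By the treatment label the groups differ in the SVAD sgRNA alone, but the genotype label differs as well, and the WT libraries carry a treatment label that names dCas9-VP64. The labels do not settle this. The labels do not say whether doxycycline was given, whether the line is 1 clone, or whether the 3 replicates of a group were separate cultures, so the spread behind each p-value is that between these libraries and may be technical only.

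Silencing of repeats starts with recognition of their DNA. KRAB zinc finger proteins bind retrotransposon sequences and recruit TRIM28 (KAP1), which brings SETDB1 to trimethylate H3K9. HP1 proteins bind the methylated histone, the HUSH complex reads and spreads the mark and recruits MORC2, and DNA methyltransferases methylate cytosines at many of the same elements. SVA elements are hominid-specific composite retrotransposons rich in CG dinucleotides, and in human cells they are known targets of both TRIM28 with its zinc finger partners and of DNA methylation.

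Gene counts per library ran from 16557854 to 22651168, so that 3 counts, the level taken as the floor, were worth 0.128 to 0.187 CPM (counts scaled to a library of 1e+06). Summed over 1546 genomic SVA_D copies, guide replicates 1, 2 and 3 were at 169, 185 and 201 CPM and the libraries without the guide at 156, 159 and 154 CPM, so the guide libraries were all higher. The alignments named in the file headers follow another naming scheme and number range for replicate 3 of both groups. These 2 libraries are called batch B and the other 4 batch A; what the names stand for (culture, extraction or sequencing) is not stated and cannot be told apart. Batches were separated by the first principal component, which held 72.7% of the variance in gene counts, and each batch holds both groups. The HEK 293T markers, among them PAX2, NEFL, KRT8 and VIM, were all expressed, and UMOD and AQP2, which mark differentiated kidney tubules, had 0 counts in every library.

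The 40 genes together made up 5065, 4925 and 4271 CPM with the guide and 5048, 5024 and 4299 CPM without it. The sum was lower in both batch B libraries and overlapped between the groups. Levels were then set side by side per kilobase of annotated exon. Counts were made over whole gene bodies, introns included, so this scale is only an approximation for genes with long introns. The annotated exons of all transcripts of a gene were joined, so genes with much annotated exon come out low on it.

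TRIM28 stood highest, at 122 CPM per exonic kb averaged over the 6 libraries (87.0 to 142). The HP1 proteins came close behind in the case of CBX3 (HP1 gamma), at 96.2 (88.7 to 104), and CBX1 (HP1 beta), at 65.6 (62.5 to 70.7), while CBX5 (HP1 alpha) was at 18.2 (11.6 to 22.5). The CBX5 value is divided by 15040 annotated exonic bases and that of CBX1 by 3087. In CPM alone CBX5 was at 273 and CBX1 at 202, and per kilobase of gene body they were at 5.56 and 6.44. HDAC1, the deacetylase shared by NuRD and CoREST, was at 69.9 CPM per exonic kb (67.3 to 75.2), a range that overlaps that of CBX1. Its partner HDAC2 was at 28.3, with 15461 annotated exonic bases against 3963 for HDAC1. In CPM alone HDAC2 was at 438 and HDAC1 at 277, and per kilobase of gene body they were at 5.59 and 6.67. CHAF1A, the large subunit of the histone chaperone CAF-1, was at 39.3, and KDM1A, the H3K4 demethylase of CoREST, at 35.2. Next came EZH2, the H3K27 methyltransferase of Polycomb repressive complex PRC2, at 29.2.

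In the DNA methylation group, the maintenance methyltransferase DNMT1 was at 26.0 and its recruitment factor UHRF1 at 24.7 CPM per exonic kb. The de novo enzymes were lower, with DNMT3B at 6.10 and DNMT3A at 2.7. The TET dioxygenases, which oxidise methylcytosine, were at similar levels, at 4.39 for TET1, 2.83 for TET3 and 1.68 for TET2. HUSH genes sat in the middle of the set: TASOR, the scaffold, at 15.5, MPHOSPH8, the chromodomain reader, at 11.0 and PPHLN1 (periphilin) at 6.54. The ATPases MORC2 and MORC3 were at 10.2 and 7.91.

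H3K9 methyltransferases were expressed at modest levels next to their co-repressor. EHMT2 (G9a) was at 12.6 CPM per exonic kb, SUV39H1 at 11.7 and SETDB1 at 8.02. SUV39H2, EHMT1 (GLP) and SETDB2 were at 3.69, 3.12 and 2.55. The EHMT1 value is divided by 22217 annotated exonic bases. In CPM alone EHMT1 was at 69.4, above SETDB1 at 56.9 and SUV39H1 at 39.4. ATF7IP, which stabilises SETDB1 in the nucleus, was at 3.68 CPM per exonic kb, and its paralog ATF7IP2 at 1.67, level with TET2. Among the remodellers and chaperones besides CHAF1A, DAXX was at 19.8, HELLS at 18.2, CHAF1B at 15.0, SMARCAD1 at 12.9 and ATRX at 6.56. The PRC2 subunits SUZ12 and EED were at 15.2 and 5.95, MBD3 of NuRD at 15.3, the deacetylase SIRT6 at 8.48 and RCOR1, the scaffold of CoREST, at 6.98.

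**Figure D1:**
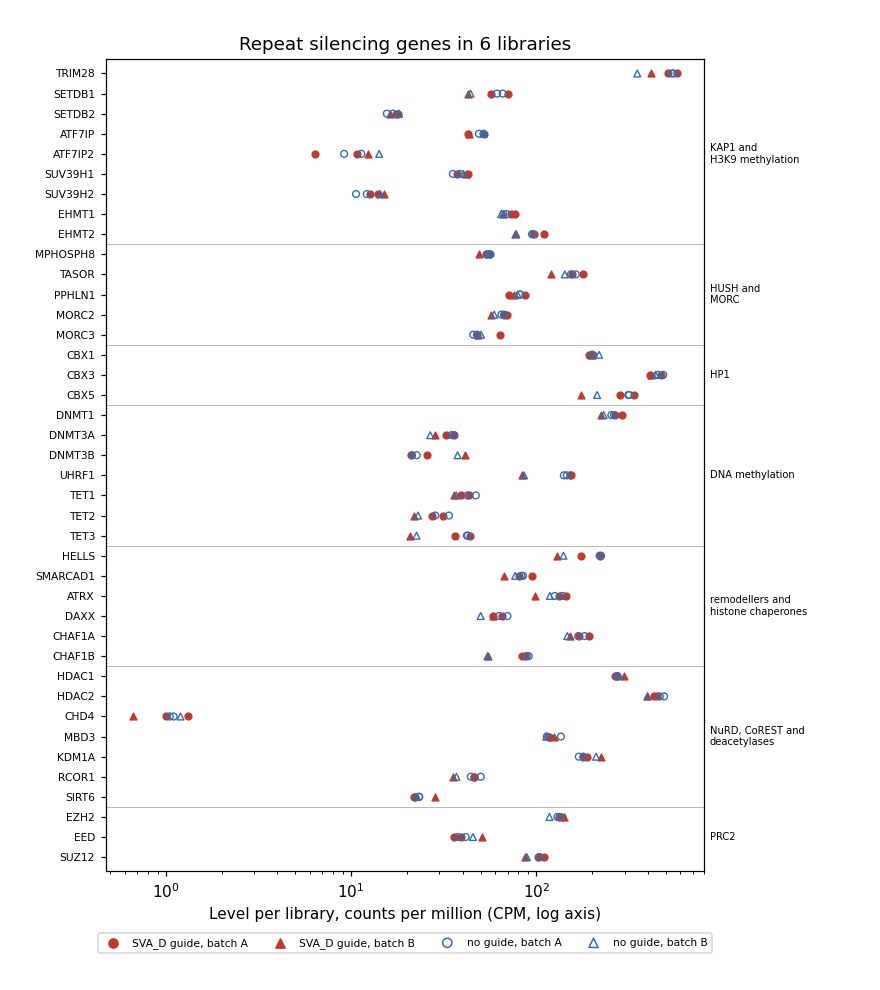
Level of each of the 40 genes in every library, in CPM on a log axis, grouped by role; filled red symbols are libraries with the SVA_D guide, open blue symbols libraries without it, circles batch A and triangles batch B. Guide and no-guide symbols lie together for nearly every gene, while the triangles of UHRF1, TET3, CBX5 and CHAF1B lie to the left of the circles and those of DNMT3B to the right.

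CHD4, the remodelling ATPase of NuRD, was listed at only 1.05 CPM, or 0.0829 CPM per exonic kb (0.0521 to 0.104), the lowest of the 40. The gene (ENSG00000111642) runs on chromosome 12 from 6570082 to 6614524, minus strand, GRCh38. A second gene model of the table, ENSG00000285238, lies over it on the same strand from 6556886 to 6607367 and covers 83.9% of its gene body and 96.8% of its exonic bases. Per the file headers, read pairs that overlap 2 genes were not counted, and ENSG00000285238 itself was listed at 0.789 CPM. Over the whole table, 1232 genes lie wholly inside other genes and all 1232 have 0 counts in every library, against 1879 of the other 18754 genes (10%). The CHD4 value is thus a count over the part of the gene that no other model covers.

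The same overlap touches 13 of the 40 genes (32.5%, against 30.6% of the 13007 genes tested). For 6 of them over 10% of the exonic bases lie inside another gene. Besides CHD4 these are SUV39H2 (65.8%, DCLRE1C), SETDB1 (46.6%, CERS2), MBD3 (39.5%, ENSG00000267059), DAXX (29.5%, ENSG00000285064) and TASOR (17.2%, CCDC66). Their levels are too low by an unknown amount. The partners of CHD4, MBD3 and DAXX lie on the same strand as the gene and those of SUV39H2, SETDB1 and TASOR on the opposite one. As the counting took no account of strand, pairs in the annotated overlap were dropped in either case. MORC3 and CHAF1B overlap each other at their ends on chromosome 21.

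**Figure D2:**
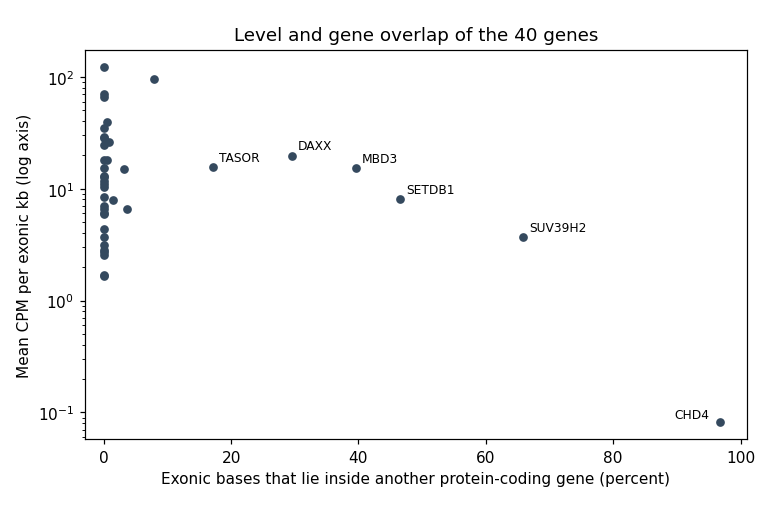
Mean level of each gene per exonic kilobase (log axis) against the percent of its exonic bases that lie inside another protein-coding gene of the table; each point is 1 gene, and the 6 above 10% are named. CHD4, at 96.8%, lies more than an order of magnitude below every other gene of the set.

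The first comparison asked whether the silencing machinery responded to the guide. None of the 40 genes passed the test. With the batch as a term, edgeR's quasi-likelihood test called 0 genes higher and 0 lower among the 40, against 0 and 0 of all 13007 genes (0% called in each direction). At an unadjusted p under 0.05 the set had 0 genes, whereas 2.67% of all genes were higher and 1.08% lower. Log2 fold changes, guide over no guide, ran from -0.25 to 0.17, with 20 above 0 and 20 below, and their median was -0.0050, beside 0.0031 for all genes. No gene's 95% interval reached a 2-fold difference in either direction, and only those of ATF7IP2 (-0.62 to 0.11) and CHD4 (-0.92 to 0.53) reached 1.5-fold. Among all genes other tools made few calls: DESeq2 called 1 lower gene, MT-ND4L, and edgeR without a count filter called 5 higher and 2 lower, none of them in the set. Summed blood cell markers were at 6.02, 6.41 and 15.9 CPM with the guide and 4.48, 4.28 and 9.24 CPM without it, higher with the guide within each batch. Of these 6 markers, which include CORO1A, 3 were tested and edgeR called 0. Their guide log2 fold changes ran from 0.040 to 1.13, so the sum can rest on few genes and does not by itself show blood cells. Markers of differentiated kidney were at 0.587, 0.498 and 0.530 CPM with the guide and 0.0477, 0.306 and 0.471 CPM without it, low throughout and without overlap between the groups. These sums rest on few counts, near the floor of 0.128 to 0.187 CPM, and 0.0477 lies below it. Their lack of overlap is therefore not read as a difference. HEK 293T markers were at 2130.2, 2174 and 1381 CPM with the guide and 2561, 2394 and 1441 CPM without it, lower with the guide within each batch. Fibroblast and endothelial sums overlapped between the groups. The part of these marker levels in the guide values was not tested.

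TRIM28 was at 574, 513 and 414 CPM with the guide and at 538, 551 and 351 CPM without it (replicates 1, 2 and 3 in each case, here and below). The groups overlap, and in both the replicate 3 library was the lowest. The log2 fold change was 0.077 ± 0.083 (SE), from -0.0036 in batch A and 0.24 in batch B. Its methyltransferase SETDB1 was at 70.7, 56.7 and 42.8 CPM with the guide and at 61.4, 65.8 and 44.1 CPM without it. The groups overlap and replicate 3 was again lowest in each, with a log2 fold change of -0.011 ± 0.092 (SE).

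Among the partners of SETDB1, ATF7IP was at 42.8, 52.3 and 43.4 CPM with the guide and at 49.0, 51.8 and 52.1 CPM without it. Guide replicates 1 and 3 lay below all libraries without the guide and guide replicate 2 above them, with a log2 fold change of -0.15 ± 0.093 (SE) and an edgeR adjusted p of 0.997. ATF7IP2 was at 6.36, 10.7 and 12.4 CPM with the guide and at 11.3, 9.17 and 14.2 CPM without it. Its value of -0.25 ± 0.17 (SE) was the lowest of the set and rests mostly on guide replicate 1, without which it was -0.070.

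SUV39H2, which trimethylates H3K9 at constitutive heterochromatin, was at 14.0, 12.7 and 15.1 CPM with the guide and at 12.2, 10.6 and 14.3 CPM without it. Within each batch the guide libraries were above those without the guide, by a log2 fold change of 0.17 ± 0.12 (SE), the highest of the set, and edgeR gave an adjusted p of 0.997. EHMT1, which forms a heterodimer with EHMT2, was at 76.5, 73.1 and 66.2 CPM with the guide and at 69.3, 66.4 and 64.6 CPM without it. It too was higher within both batches, with 0.11 ± 0.076 (SE), and did not pass. The remaining writers had small values: 0.071 ± 0.080 (SE) for EHMT2, 0.091 ± 0.088 (SE) for SUV39H1 and 0.029 ± 0.11 (SE) for SETDB2.

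For HUSH the scaffold TASOR was at 179, 156 and 121 CPM with the guide and at 154, 163 and 142 CPM without it. Guide replicate 1 was the highest and guide replicate 3 the lowest of the 6, and the log2 fold change of -0.025 ± 0.088 (SE) combines 0.081 in batch A and -0.24 in batch B. MPHOSPH8 was at 53.7, 56.5 and 48.9 CPM with the guide and at 54.5, 56.2 and 55.0 CPM without it. PPHLN1 was at 71.5, 86.7 and 75.4 CPM with the guide and at 82.0, 81.8 and 79.2 CPM without it. Neither separated the groups, with log2 fold changes of -0.063 ± 0.080 (SE) for MPHOSPH8 and -0.058 ± 0.085 (SE) for PPHLN1.

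MORC2, the ATPase that works with HUSH, was at 69.2, 67.0 and 57.2 CPM with the guide and at 64.8, 67.0 and 59.2 CPM without it, a log2 fold change of 0.015 ± 0.076 (SE). MORC3, a paralog also linked to repression of retroelements, was at 64.0, 47.9 and 48.6 CPM with the guide and at 45.7, 47.9 and 50.3 CPM without it. A single library, guide replicate 1, stood above the others, and without it the log2 fold change of 0.16 ± 0.11 (SE) became -0.0039.

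Of the HP1 proteins, CBX5 was at 338, 283 and 175 CPM with the guide and at 314, 318 and 213 CPM without it. The spread within each group, set by replicate 3, was wider than the gap between the groups, with a log2 fold change of -0.11 ± 0.088 (SE). CBX1 and CBX3 had -0.052 ± 0.072 (SE) and -0.089 ± 0.079 (SE).

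In the DNA methylation group, DNMT3B was at 20.9, 25.7 and 41.4 CPM with the guide and at 21.3, 22.6 and 37.6 CPM without it. The replicate 3 libraries of both groups were the highest, and the log2 fold change for the guide was 0.11 ± 0.099 (SE). The other values were 0.050 ± 0.076 (SE) for DNMT1, 0.050 ± 0.073 (SE) for UHRF1, 0.00050 ± 0.088 (SE) for DNMT3A, -0.091 ± 0.086 (SE) for TET1, -0.075 ± 0.10 (SE) for TET2 and -0.088 ± 0.093 (SE) for TET3. Each of these 95% intervals spans 0.

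HELLS, a remodeller needed for DNA methylation at repeats, had the smallest p on the lower side, and was at 175, 219.6 and 129 CPM with the guide and at 219.8, 223 and 140.2 CPM without it. Each guide library was below its batch counterparts, with a log2 fold change of -0.15 ± 0.087 (SE) (edgeR adjusted p of 0.997, unadjusted p of 0.105). Without guide replicate 1 it was -0.059. SMARCAD1, ATRX, DAXX, CHAF1A and CHAF1B ran from -0.052 to 0.048.

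HDAC2 was at 431, 447 and 396 CPM with the guide and at 489.5, 465 and 399 CPM without it. It was lower with the guide within both batches, by -0.084 on the log2 scale, while HDAC1 had 0.016 ± 0.072 (SE). EZH2 was at 137, 133 and 141 CPM with the guide and at 130.1, 134 and 118 CPM without it. Its log2 fold change of 0.11 ± 0.076 (SE) combined 0.033 in batch A and 0.26 in batch B. MBD3, KDM1A, RCOR1, SIRT6, EED and SUZ12 ran from -0.038 to 0.073.

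Counting only complete separation within both batches, 2 of the 40 genes were higher with the guide (SUV39H2 and EHMT1) and 2 lower (HELLS and HDAC2). Of all genes, 8.8% were higher and 7.37% lower by the same criterion, so neither count stands above the background. Batch A alone gave the 40 genes a median log2 fold change of -0.0055 and batch B one of -0.043, where 1 library stands against 1 and no test can be made. The sign was the same in both batches for 20 of the 40 genes (50%), and for 45% of 12732 genes with a value in each.

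**Figure D3:**
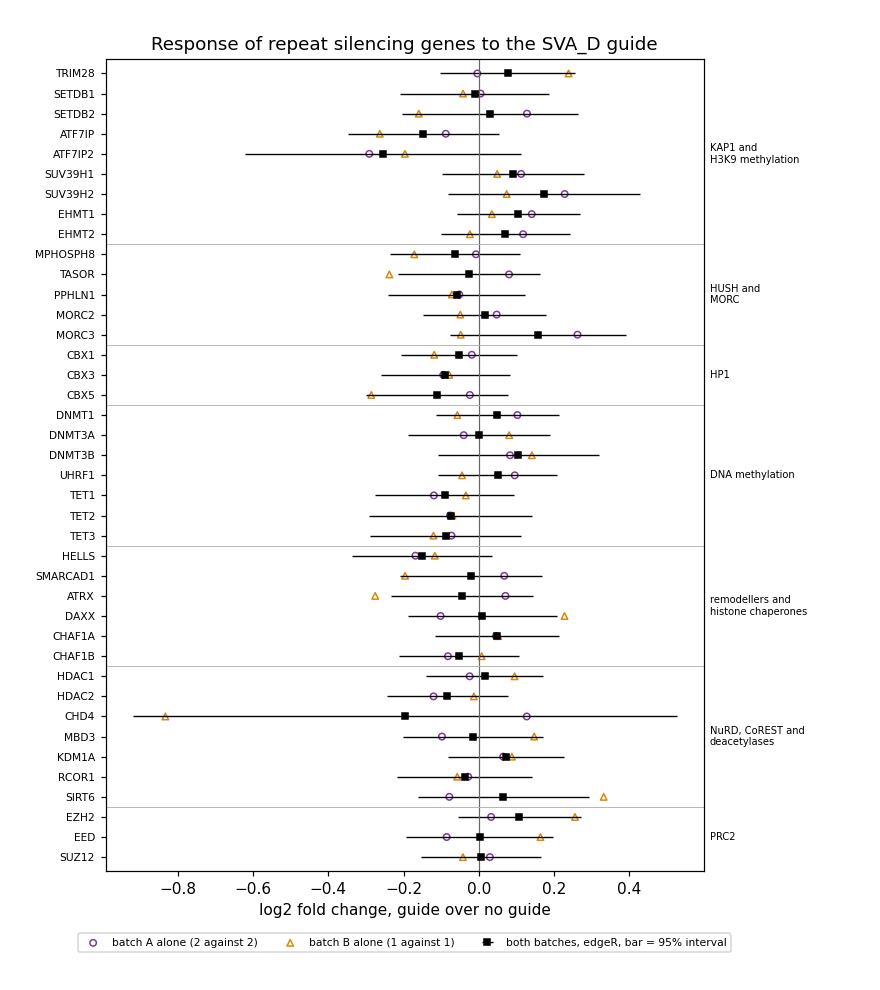
Log2 fold change with the SVA_D guide for each gene; black squares and bars are edgeR's estimate over both batches with its 95% interval, open circles batch A alone and open triangles batch B alone. Every interval spans 0, and that of CHD4, with about 1 CPM, is the widest.

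Whether the response differed between the batches was tested with an interaction term. edgeR called 0 of 13007 genes (0%) and 0 of the 40. At an unadjusted p under 0.05 it had 7.93% of all genes and 1 of the 40, ATRX, which deposits the histone variant H3.3 with DAXX. ATRX was at 145, 132 and 97.8 CPM with the guide and at 126, 138 and 118 CPM without it. The guide values were 0.071 in batch A and -0.28 in batch B (log2 fold changes), with an interaction p of 0.0486 and an adjusted p of 0.629 (edgeR).

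ATRX is also 1 of 3 genes of the set that hold an SVA_D copy, each time in an intron. The copy in ATRX (SVA_D_dup783, chromosome X from 77765691 to 77767271, GRCh38) has the same orientation as the gene. It gathered 24 counts with the guide and 16 without it, summed over 3 libraries each. Replicates 1, 2 and 3 had 5, 13 and 6 counts with the guide and 5, 5 and 6 without it. The excess thus lay in guide replicate 2. SVA_D_dup189 in TET3 (chromosome 2 from 74060525 to 74062263) had summed counts of 3 with the guide and 1 without it. SVA_D_dup1096 in RCOR1 (chromosome 14 from 102676050 to 102678243) had 15 and 10, and both copies lie opposite to their gene. A pair with several alignments was counted once for every copy it matched, so other copies can contribute to these counts. A copy inside the gene occurred for 7.5% of the set and 3.95% of all genes tested, with median gene bodies of 54853 and 36905 bases. Start sites within 50 kb of a copy were found for ATRX (18962 bases), EHMT2 (33576) and SUV39H1 (34934), which is 7.5% of the set and 8.21% of all genes. None of these 5 genes passed for the guide.

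The wider pathways were described by 109 further genes in 7 lists, of which 103 passed the count filter. edgeR called 0 of the 103 with the guide, and 0 had an unadjusted p under 0.05. Their median log2 fold change was 0.00069, with 52 above 0 and 51 below. The zinc finger repressors that guide TRIM28 to SVA and L1 elements were led by ZNF91, which binds SVA, at 6.07, 6.41 and 7.55 CPM with the guide and at 6.10, 6.17 and 9.67 CPM without it. Its log2 fold change was -0.12 ± 0.15 (SE) and that of ZNF611, another SVA-binding repressor, -0.068 ± 0.16 (SE).

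Elsewhere the smallest p-values belonged to SUMO2 (-0.14 ± 0.074 (SE)), the modifier on which SETDB1 recruitment by TRIM28 depends, and METTL3 (0.11 ± 0.088 (SE)), an RNA methyltransferase, among HUSH, MORC and H3K9 partners. For H3K9 demethylases they were PHF8 (0.084 ± 0.091 (SE)) and KDM3B (0.078 ± 0.085 (SE)). Among methyl-CpG readers and DNA methylation partners they were MBD2 (-0.13 ± 0.11 (SE)) and UHRF2 (0.088 ± 0.086 (SE)). The nucleosome assembly list was led by H3-3A (-0.17 ± 0.11 (SE)), a gene for histone H3.3, and UBN1 (0.14 ± 0.12 (SE)), of the HIRA complex. NuRD and CoREST subunits were led by HDAC3 (0.15 ± 0.074 (SE)) and CHD3 (0.16 ± 0.085 (SE)), and Polycomb genes by CBX8 (0.14 ± 0.090 (SE)) and KDM2B (0.16 ± 0.12 (SE)). None of these passed. The demethylase gene KDM4A and the chaperone gene ASF1A lie wholly inside other genes of the table and are listed at 0, so no value can be given for them.

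The second comparison was between the batches, which the labels do not give as a condition of the study. More of the set passed here than for the guide. All 7 DNA methylation genes passed: UHRF1, TET3, TET2, DNMT3A, DNMT1 and TET1 were lower in batch B and DNMT3B was higher. Without TMM scaling 2 of them, UHRF1 and TET3, passed as lower and DNMT3B as higher. Most remodellers and chaperones, TRIM28, SETDB1 and CBX5 were lower as well. edgeR called 20 of the 40 lower in batch B (50%) and 4 higher (10%), while 26.6% of the 13007 genes tested were lower and 27.1% higher (53.7% in all). The median log2 fold change, batch B over batch A, was -0.22 for the 40 and 0.0058 for all genes. Among the 9374 genes at 10 CPM or more, which hold 39 of the 40, 33.9% were lower and 21.5% higher, with a median of -0.086.

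These counts depend on the scaling. Without TMM, the scaling that sets the bulk of genes level between libraries, the median of all genes moved from 0.0058 to 0.20, and 1766 genes were lower and 5306 higher. On that scale 7 of the 40 were lower and 9 higher, with a median of -0.024, 0.23 below that of all genes; leaving out TMM shifts all genes by nearly the same amount, so this gap cannot change with it. Directions in batch B are therefore given relative to all genes. The call for 8 genes (CBX5, CHAF1B, DNMT3B, HELLS, SETDB1, TET3, TRIM28 and UHRF1) held under all 14 settings tried, no TMM included. Without guide replicate 3, 11 were lower and 1, DNMT3B, higher.

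Of the 6 genes lower in batch B with the smallest p, 5 have a promoter in the RefSeq table (GRCh38.p14), and these are shown. Their shared direction follows from how they were picked. Each line gives the 250 bases before the annotated start site, 5′ to 3′ on the gene's strand. Capitals mark matches to the motifs TTTCCCGC, TTTGGCGC, TTTCGCGC and TTTGCCGC on either strand, which are letters of the kind bound by E2F factors, the regulators of genes used in DNA replication. The UHRF1 window is chr19:4909251-4909500, plus strand, and its annotated start lies 6421 bases inside the Ensembl gene model. The others are HELLS (chr10:94545538-94545787, plus strand, 44354 bases inside its model), TET3 (chr2:73984660-73984909, plus strand), CHAF1B (chr21:36385142-36385391, plus strand) and CBX5 (chr12:54280123-54280372, minus strand).
UHRF1: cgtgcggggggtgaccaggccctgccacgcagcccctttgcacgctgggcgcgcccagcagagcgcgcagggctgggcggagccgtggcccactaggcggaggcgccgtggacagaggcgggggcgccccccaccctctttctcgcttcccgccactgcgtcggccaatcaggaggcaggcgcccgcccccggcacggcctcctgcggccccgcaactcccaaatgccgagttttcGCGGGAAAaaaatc
HELLS: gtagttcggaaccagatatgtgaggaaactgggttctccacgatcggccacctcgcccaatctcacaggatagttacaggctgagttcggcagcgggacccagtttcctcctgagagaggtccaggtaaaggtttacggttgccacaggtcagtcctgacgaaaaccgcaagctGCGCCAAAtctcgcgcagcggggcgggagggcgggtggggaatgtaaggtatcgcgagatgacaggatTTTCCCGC
TET3: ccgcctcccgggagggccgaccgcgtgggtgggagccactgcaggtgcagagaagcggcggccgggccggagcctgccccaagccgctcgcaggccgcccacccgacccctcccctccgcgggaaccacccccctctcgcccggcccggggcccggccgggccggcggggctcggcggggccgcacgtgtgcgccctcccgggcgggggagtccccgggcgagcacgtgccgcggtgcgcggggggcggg
CHAF1B: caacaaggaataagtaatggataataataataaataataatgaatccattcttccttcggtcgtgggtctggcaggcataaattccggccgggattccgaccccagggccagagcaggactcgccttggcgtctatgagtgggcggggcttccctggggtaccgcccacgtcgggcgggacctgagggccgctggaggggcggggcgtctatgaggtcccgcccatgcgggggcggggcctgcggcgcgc
CBX5: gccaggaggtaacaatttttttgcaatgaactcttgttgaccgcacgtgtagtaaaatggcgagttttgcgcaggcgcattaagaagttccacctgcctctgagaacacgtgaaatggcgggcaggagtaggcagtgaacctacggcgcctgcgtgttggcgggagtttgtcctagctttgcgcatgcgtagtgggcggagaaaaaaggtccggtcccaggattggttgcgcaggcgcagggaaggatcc

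UHRF1 holds GCGGGAAA, the reverse complement of the first motif, from 14 bases before its start. HELLS holds GCGCCAAA from 76 bases and TTTCCCGC from 8 bases before its start. The other 3 promoters hold no such letters in this window. In all, 36 of the 40 genes matched an entry of the table (TRIM28, ATF7IP2, ATRX and DAXX did not), of which the first was used where a gene has several. A motif was found in 4 of the 36 (11.1%), UHRF1, HELLS, SUZ12 and SIRT6, and in 761 of 27305 promoters of the same length (2.8%). The 27305 promoters were not limited to the genes tested and had a lower median of CG, letters that every motif contains. The shares are therefore not like for like. Of these 4 genes 3 were lower in batch B, and of the 32 without a match 15 were. Of all 13007 genes tested 26.6% were lower, and the share among those with a match was not counted. The 36 windows held a median of 21 CG dinucleotides (all promoters, 11), and the 5 shown held 28 for UHRF1, 18 for HELLS, 37 for TET3, 21 for CHAF1B and 17 for CBX5. A match is a description of letters, not of binding.

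UHRF1, which brings DNMT1 to newly replicated DNA, was at 153, 154, 146 and 141 CPM in batch A and at 83.2 and 85.8 CPM in batch B (guide replicates first in each case, here and below). Both batch B libraries lay far below the 4 of batch A, at 0.569 times the level, a log2 fold change of -0.81 ± 0.080 (SE) with an edgeR adjusted p of 3.67e-06. DNMT1 itself fell less, with -0.24 ± 0.082 (SE) and an edgeR adjusted p of 0.0229, a call lost in 5 of the other 13 settings.

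TET3 showed the deepest fall of the set. It was at 44.0, 36.5, 42.2 and 42.7 CPM in batch A and at 20.7 and 22.5 CPM in batch B, which is 0.523 times the level and a log2 fold change of -0.93 ± 0.10 (SE) (edgeR adjusted p of 8.75e-06). TET2 was lower by -0.43 and TET1 by -0.23 on the log2 scale (edgeR adjusted p of 0.00441 and 0.0448). Without TMM these were -0.23 and -0.040 and neither passed, and the TET1 call was lost in 6 of the other 13 settings.

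DNMT3B went the other way and was the largest rise. It was at 20.9, 25.7, 21.3 and 22.6 CPM in batch A and at 41.4 and 37.6 CPM in batch B, so that both batch B libraries lay above all of batch A, at 1.75 times the level. The log2 fold change was 0.80 ± 0.10 (SE), with an edgeR adjusted p of 2.50e-05. The other de novo enzyme, DNMT3A, was lower, with -0.34 ± 0.094 (SE) and an edgeR adjusted p of 0.00753, a call that is lost without TMM.

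TRIM28 was at 574, 513, 538 and 551 CPM in batch A and at 414 and 351 CPM in batch B. The batches do not overlap, the log2 fold change was -0.51 ± 0.090 (SE) and the edgeR adjusted p 0.000365. SETDB1 was also lower, with -0.55 ± 0.10 (SE) and an edgeR adjusted p of 0.000443, measured outside the 46.6% of its exonic bases that overlap CERS2. EHMT2 was lower by -0.36 (edgeR adjusted p of 0.00283) and by -0.17 without TMM, where it did not pass. ATF7IP2, near 10 CPM, was at 6.36, 10.7, 11.3 and 9.17 CPM in batch A and at 12.4 and 14.2 CPM in batch B, higher by 0.50 ± 0.17 (SE) with an edgeR adjusted p of 0.0261, a call lost in 4 of the other 13 settings. The other 5 genes of the H3K9 group (SETDB2, ATF7IP, SUV39H1, SUV39H2 and EHMT1) did not pass.

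CBX5 was at 338, 283, 314 and 318 CPM in batch A and at 175 and 213 CPM in batch B, 0.616 times the level. Its log2 fold change was -0.70 ± 0.096 (SE) (edgeR adjusted p of 5.06e-05), whereas those of the sister proteins CBX1 and CBX3 were 0.074 ± 0.076 (SE) and -0.087 ± 0.084 (SE) and did not pass. HUSH and MORC genes moved less. TASOR was lower by -0.31 (edgeR adjusted p of 0.013) and MORC2 by -0.20 (edgeR adjusted p of 0.0488), and MPHOSPH8, PPHLN1 and MORC3 did not pass. The TASOR call was lost in 3 and the MORC2 call in 9 of the other 13 settings, no TMM among them.

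Of the remodellers and chaperones 5 of 6 were lower, or 2 of 6 without TMM. CHAF1B, the middle subunit of CAF-1, was at 83.6, 86.4, 91.0 and 88.8 CPM in batch A and at 54.8 and 54.5 CPM in batch B, with no overlap and a log2 fold change of -0.68 ± 0.081 (SE) (edgeR adjusted p of 1.72e-05). HELLS was at 175, 219.6, 219.8 and 223 CPM in batch A and at 129 and 140.2 CPM in batch B, again with no overlap, and had -0.64 ± 0.095 (SE) (edgeR adjusted p of 9.71e-05). ATRX, SMARCAD1 and CHAF1A were lower by smaller amounts, from -0.33 to -0.25, and lost the call without TMM. DAXX had -0.24 ± 0.098 (SE) and an edgeR adjusted p of 0.0525.

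Co-repressor complexes split. KDM1A, which removes methyl groups from H3K4, was at 187, 179, 169.6 and 179.7 CPM in batch A and at 223 and 210.2 CPM in batch B, higher by 0.28 ± 0.075 (SE) (edgeR adjusted p of 0.0068), while its partner RCOR1 was lower by -0.36 (edgeR adjusted p of 0.00391). HDAC2 was lower by -0.20 (edgeR adjusted p of 0.0449), and HDAC1, MBD3, CHD4 and SIRT6 did not pass. In PRC2, EED was at 35.7, 39.1, 41.5 and 37.6 CPM in batch A and at 51.0 and 45.5 CPM in batch B, higher by 0.32 ± 0.094 (SE) (edgeR adjusted p of 0.0103), SUZ12 was lower by -0.26 (edgeR adjusted p of 0.0135), and EZH2 had -0.050 ± 0.081 (SE). Without TMM the calls for RCOR1, HDAC2 and SUZ12 are lost and those for KDM1A and EED are kept. Of all 14 settings, the HDAC2 call held in 7, that for SUZ12 in 11 and those for RCOR1, KDM1A and EED in 12 each.

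Of the related genes, 48 of 103 were lower (46.6%) and 13 higher (12.6%) by edgeR, with a median of -0.23. Without TMM 29 were lower and 25 higher, with a median of -0.035. H3K9 demethylases were lower in 6 of 9 cases, or 5 of 9 without TMM, led by KDM3A (-1.24 ± 0.12 (SE)) and KDM3B (-0.65 ± 0.093 (SE)). Among the other lists the smallest p-values were those of the deacetylase gene SIRT1 (-1.25 ± 0.085 (SE)) and GATAD2B (-0.78 ± 0.090 (SE)) of NuRD, CDCA7L (-0.88 ± 0.099 (SE)), a relative of the HELLS activator CDCA7, and USP7 (-0.56 ± 0.080 (SE)), which deubiquitinates UHRF1 and DNMT1. They were also those of BMI1 (-0.74 ± 0.10 (SE)) and AEBP2 (-0.59 ± 0.084 (SE)) of the Polycomb complexes, SSRP1 (-0.54 ± 0.086 (SE)) of FACT, RBBP4 (-0.47 ± 0.082 (SE)), and MORC4 (-0.52 ± 0.086 (SE)) and WIZ (-0.51 ± 0.090 (SE)), a partner of EHMT1 and EHMT2. All of these were also lower without TMM at an edgeR adjusted p under 0.05.

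Of the zinc finger repressors, ZNF445 (-0.78 ± 0.11 (SE)), ZNF765 (-0.64 ± 0.12 (SE)) and ZNF611 (-0.68 ± 0.17 (SE)) were lower in batch B and ZNF429 (0.59 ± 0.17 (SE)) and ZNF91 (0.47 ± 0.15 (SE)) were higher, each with and without TMM. The other 3 of the 8 tested (ZNF141, ZNF248 and ZNF649) did not pass. ZNF91 and ZNF611 were at 6.19 and 11.7 CPM in batch A and 8.61 and 7.36 CPM in batch B.

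Other measures moved with the batch as well. Of 20 genes of S phase and proliferation, 5 were lower, led by the replication licensing gene CDT1 (-1.29 ± 0.10 (SE)) and the helicase subunit gene MCM5 (-0.62 ± 0.080 (SE)), and 6 were higher, with a median of -0.024, or 3 lower and 9 higher without TMM. All 8 HEK 293T markers differed, 5 higher and 3 lower, and their summed level was 2130 to 2561 CPM in batch A and 1381 to 1441 CPM in batch B, mainly through VIM (-1.33 ± 0.095 (SE)). Fibroblast markers summed to 2.19 to 4.42 CPM in batch A and 20.8 to 21.1 CPM in batch B, led by COL1A1, with 1 of 2 tested called higher and DCN at 0 in batch A. Blood cell markers summed to 4.28 to 6.41 CPM in batch A and 9.24 to 15.9 CPM in batch B, with 2 of 3 tested called higher and PTPRC at 0 in batch B. Endothelial markers summed to at most 1.58 CPM and differentiated kidney markers to at most 0.587 CPM. The part of these differences in the values of the silencing genes was not tested, and in bulk RNA fewer cells of a type and less RNA per cell cannot be told apart.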

How the data were processed

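The values are the deposited raw counts per protein-coding gene. The submitters' processing notes name STAR 2.7.0e, featureCounts 2.0.0 and FastQC 0.11.8, with the build GRCh38. Per the file headers, pairs were counted without strand over whole gene bodies of Ensembl release 97, and pairs with several alignments or with more than 1 gene under them were dropped; SVA_D copy counts kept multi-mapping pairs. Total RNA was extracted with TRIzol and sequenced on a NovaSeq, per the labels' protocols.

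Symbols came from a symbol table (19887 genes) or GENCODE release 29 (93), which also gave exons; 6 genes kept identifiers. The 40 genes, the lists and the tests were chosen with earlier results of these data known. Of 19986 genes, 13007 passed filterByExpr (minimum count of 10). They were tested in R 4.3.3 with edgeR 4.0.16 (glmQLFit, glmQLFTest) after TMM scaling, with terms for batch and group, Benjamini-Hochberg adjustment over all 13007 genes and a threshold of 0.05. The batch term is in the model because the common dispersion was 0.0609 without it and 0.00697 with it. CPM use the scaled library sizes. The interaction model has 2 residual degrees of freedom, and the main model 3. DESeq2 1.42.0 and voom in limma 3.58.1 were alternatives. Scripts were checked on simulated data.

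By rule, values in every library are given for TRIM28, SETDB1, TASOR, MPHOSPH8, PPHLN1 and MORC2, for the 5 genes with the smallest p on each side for the guide, and for up to 6 called genes on each side for the batch, and 2 genes per related list are named. ATRX and the overlapped genes were named after their values were seen. Same-numbered libraries deviated together (r across genes 0.49, 0.56 and 0.83), which comes from the batch, since within batch A the correlation was -0.043. Replicates 1 and 2 of each group differed beyond counting noise (chi-square 166640 and 67841 on 13006 degrees of freedom).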

Additional observations from a re-analysis of the deposited data

How the results depend on the processing

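For the guide, 0 of the 40 genes were called under the 8 alternatives that keep all replicates or use batch A alone, and 0 with any 1 library left out. The replicate block (the replicate number as a term in place of the batch) called 0 genes, put the median of the 40 at -0.0059 and changed no call. Over all genes, edgeR called 5 higher and 2 lower without a count filter, DESeq2 called 1 lower, and with 1 library left out 0 to 2 were called higher. With 1 library left out the median of the 40 ran from -0.020 to 0.0010. Of 320 single-gene values under the other alternatives 295 kept their sign, and 194 of 240 with 1 library left out. The guide values that changed sign were not all small, since in the main fit MORC3 was at 0.16 and CHD4 at -0.20. Without TMM the values with a changed sign were SETDB1 0.032, TASOR 0.016, SMARCAD1 0.022, MBD3 0.027 and RCOR1 0.0035. With DESeq2 size factors they were DNMT3A -0.0027 and EED -0.00091, without a count filter DNMT3A -0.0029 and EED -0.0016 and with DESeq2 DNMT3A -0.0028 and EED -0.0013. Without a batch term they were DNMT3A -0.0059 and DAXX -0.0014, and with the replicate block DNMT3A -0.00037. In batch A alone they were TRIM28 -0.0036, SETDB1 0.0050, TASOR 0.081, DNMT3A -0.040, SMARCAD1 0.068, ATRX 0.071, DAXX -0.10, HDAC1 -0.024, CHD4 0.13, SIRT6 -0.078 and EED -0.085. With 1 library left out, the genes whose guide value changed sign ran as follows: ATRX -0.12 to 0.071, CHAF1A -0.0022 to 0.091, CHD4 -0.45 to 0.13, DAXX -0.10 to 0.083, DNMT1 -0.0057 to 0.10, DNMT3A -0.040 to 0.047, EED -0.085 to 0.064, HDAC1 -0.024 to 0.033, MBD3 -0.098 to 0.080, MORC2 -0.012 to 0.048, MORC3 -0.0039 to 0.26, PPHLN1 -0.14 to 0.013, RCOR1 -0.095 to 0.0074, SETDB1 -0.11 to 0.068, SETDB2 -0.029 to 0.13, SIRT6 -0.078 to 0.11, SMARCAD1 -0.12 to 0.068, SUZ12 -0.037 to 0.030, TASOR -0.12 to 0.081 and TRIM28 -0.0037 to 0.14. The cause was not tested.

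For the batches, leaving out TMM gave 5306 genes higher and 1766 lower, 9 of the 40 higher and 7 lower, and a median of -0.024; this follows from the shift of the median of all genes by 0.20. In the guide libraries alone 2 of the 40 were higher and 12 lower, and 2299 of all genes were lower. Batch B holds 1 library there. The libraries without the guide alone, where batch B also holds 1, did not show this fall over all genes. The median of the 40 was -0.22 in the guide libraries and -0.18 in those without the guide. The cause of the lower counts was not tested. With 1 library left out, 1 to 4 of the 40 were higher and 11 to 21 lower, with a median from -0.23 to -0.16, and over all genes 2623 to 3992 were higher and 2558 to 3994 lower. Of 280 single-gene values 225 kept their direction and side of the threshold, and 196 of 240 with 1 library left out. Values that changed sign without TMM were ATF7IP 0.16, EHMT1 0.073, MPHOSPH8 0.11, PPHLN1 0.14, MORC3 0.15, CBX3 0.11, MBD3 0.18 and EZH2 0.14. Without a count filter it was SETDB2 -0.0037. In the libraries without the guide they were ATF7IP 0.027, MORC3 0.085, CHD4 0.14 and SIRT6 -0.063, and in those with it SETDB2 -0.15, MBD3 0.081 and EZH2 0.039. With 1 library left out the batch values that changed sign ran as follows: ATF7IP -0.13 to 0.047, CHD4 -0.82 to 0.16, EZH2 -0.16 to 0.058, MBD3 -0.14 to 0.10, MORC3 -0.21 to 0.10, SETDB2 -0.13 to 0.16 and SIRT6 -0.042 to 0.37. None of these genes was called in the batch comparison reported above. Where a batch keeps 1 library of a group, its spread is taken from the others. Counts are fewest for CHD4, at 15 to 28 per library outside the other gene model, and intervals and floors cover counting error and the spread between these libraries only.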
